A study of Homo sapiens with 18 samples.

Results

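The comparison set clone 2N-2 against clone 2N-1, a pair of diploid single-cell clones of RPE1, an immortalised human line derived from retinal pigment epithelium. It used 6 of the 18 RNA-seq libraries of the series, 3 per clone, chosen by the isolate and ploidy in the labels and by no measured value. The series calls the 3 libraries of a clone (A, B and C) biological replicates. All 6 clones of the series descend from cells given 2.5 uM ZM447439, which blocks Aurora kinases, for 72 h and grown for several weeks until proliferating populations appeared, from which single cells were cloned. Clones 2N-1, 2N-2 and 2N-3 had stayed diploid and clones 4N-1, 4N-2 and 4N-3 were tetraploid, each diploid clone coming from the same plates as its tetraploid partner. Clone 2N-2 had also been labelled with Hoechst 33342, a DNA dye, before it was sub-cloned, as had clone 4N-2, and clone 2N-1 had not, so that the dye and the clone cannot be told apart here. Each group is 1 clone, so a p-value below measures the spread between libraries of these clones and not the spread between diploid clones at large.

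Aurora kinases run chromosome alignment, the spindle checkpoint and the final division of the cell, and cells that leave mitosis without dividing double their chromosomes. A cell that stays diploid through such a drug gives a clone with the same nominal genome as its neighbours, and a difference between such clones is the background against which tetraploid clones are read. Clones of a cell line can differ because each starts from 1 cell, whose silent and active genes are passed on to its progeny.

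Reads counted in genes ran to 49.2, 54.4 and 44.4 M (M being the mega prefix) in replicates A, B and C of 2N-2, against 41.9, 39.8 and 37.2 M in those of 2N-1. Of the transcription factors of the pigment epithelium lineage, OTX2 had 46.2, 46.5 and 42.3 reads per M in 2N-2 and 46.0, 45.3 and 41.6 in 2N-1. PAX6 had 94.3, 97.8 and 86.8 reads per M in 2N-2 against 109.3, 108.2 and 101.3 in 2N-1, without overlap but not past the test (limma-voom adjusted p = 0.75). The visual cycle and pigment genes RPE65, RLBP1, TYR and DCT lay under 0.25 reads per M in both, while other markers of the same list were present, among them GPR143 (11.01 reads per M in 2N-2 and 30.3 in 2N-1), RDH5 (25.5 and 22.9) and MITF (18.4 and 22.3). In bulk RNA, fewer cells of a type and less RNA per cell cannot be told apart. Of 27 markers of other cell types 11 were testable and 0 passed the limma-voom test (1 at an unadjusted p under 0.05, and 0 of 3 by limma on RPKM), and CD3E, HBB and INS had 0 reads in both clones.

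The root-mean-square log2 difference between a library of 2N-2 and a library of 2N-1 was 0.235 to 0.316 over the 9 pairs of libraries, against 0.188 to 0.211 within 2N-2 and 0.191 to 0.252 within 2N-1. Recovered reads, the whole reads behind the deposited RPKM values, were tested with limma-voom across all 18 libraries, and a gene was called at a Benjamini-Hochberg adjusted p under 0.05 and a fold of 2 or more. Of 23397 tested genes 320 were called (1.37%), 183 higher in 2N-2 (0.782%) and 137 lower (0.586%). Without the fold limit, 352 genes rose (1.5%) and 250 fell (1.07%). On log2(RPKM + 0.5), where 9704 genes passed a minimum of 1 RPKM, limma called 17 genes (0.175%), 8 higher (0.0824%) and 9 lower (0.0927%), while 928 had an unadjusted p under 0.05. The RPKM count was 12 without replicate C of 2N-2 and 11 without any other of the 6 libraries, with 3 or 4 genes lower. The RPKM of most genes were divided by a length that included introns, so that genes with long introns missed the minimum.

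**Figure D1:**
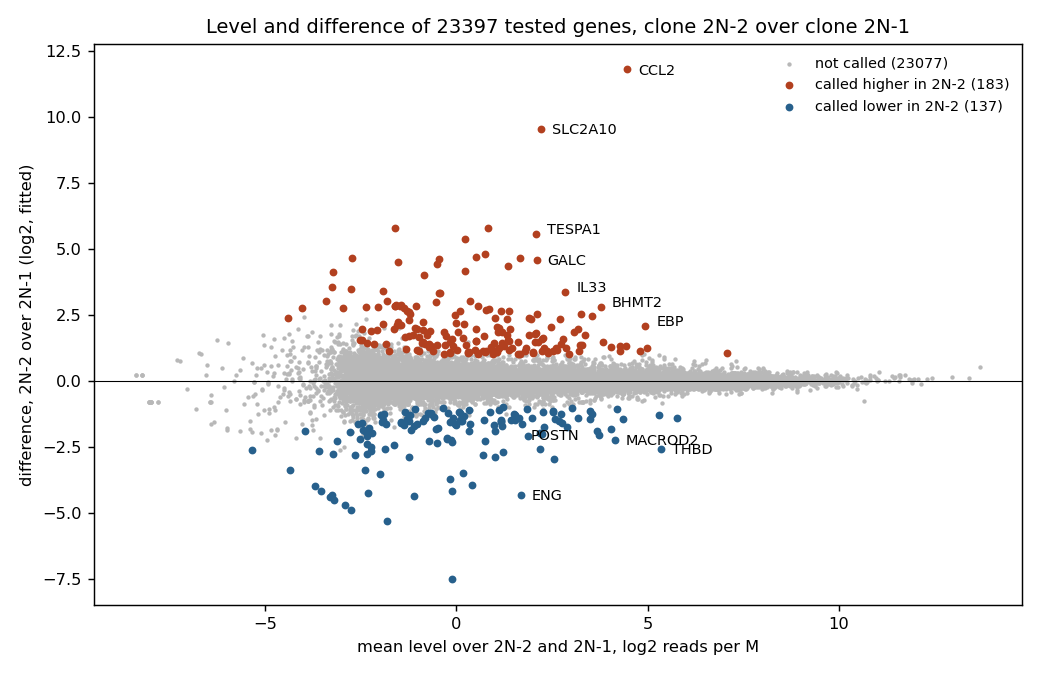
Each point is a tested gene, with its mean level over clones 2N-2 and 2N-1 (log2 reads per M) on the horizontal axis and the fitted log2 difference, 2N-2 over 2N-1, on the vertical axis; red and blue mark the 183 and 137 called genes, and genes with 0 reads in both clones are not drawn. Most of the 23397 genes lie along 0, and CCL2 at 11.81 and SLC2A10 at 9.56 stand highest, both fitted values that depend on the small count voom adds where a clone has no reads.

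The sharpest differences were genes with almost no reads in 1 of the clones, taken as 3 reads or fewer over a clone's 3 libraries against 1 read per M or more in each library of the other clone. By that measure 3 genes qualified, 2 of them on in 2N-2 and 1 on in 2N-1.

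CCL2, the chemokine that draws monocytes into tissue, stood at 48.1, 49.1 and 36.2 reads per M in replicates A, B and C of 2N-2, and at 0, 0 and 0 in those of 2N-1. The 6715 reads of 2N-2 against 0 in 2N-1 made it at least 1828-fold higher, taking 3 reads over the 3 libraries as the limit that a count of 0 allows (limits of this kind cover counting error only). It was called on RPKM as well, with a log2 difference of 5.55 ± 0.20 (SE, limma adjusted p = 8.5e-10). The other clones had means of 8.55 (2N-3), 1.803 (4N-1), 0.763 (4N-2) and 2.88 (4N-3) reads per M, so 2N-2 was the highest and 2N-1 the lowest of the 6. CCL2 lies on chromosome 17 at 34255218 to 34257203 (GRCh38; positions here are of that build, not of hg19, to which the reads were aligned).

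SLC2A10, a facilitative sugar transporter of chromosome 20 (46709487 to 46736347), had 9.61, 9.38 and 8.79 reads per M in 2N-2 and 0, 0 and 0 in 2N-1. That was 1389 reads against 0, at least 378-fold higher in 2N-2. All 4 other clones had the transcript, with means of 2.58 to 10.0 reads per M, so its absence set 2N-1 apart and not 2N-2. The converse case was the long noncoding RNA ENSG00000243486 on chromosome 3, which had 0, 0 and 0 reads per M in 2N-2 against 1.74, 1.86 and 1.95 in 2N-1 and was at least 91.9-fold lower. The promoter of SLC2A10 in RefSeq (GRCh38.p14, chr20:46709399-46709698, plus strand, 250 bases before to 50 after the start) is shown because the gene was on in 5 clones and had no read in 2N-1. Capitals mark the dinucleotide CG, the site of DNA methylation in mammals; the window holds 31, and 20.2% of all 27305 promoters in the same table hold as many or more.
SLC2A10: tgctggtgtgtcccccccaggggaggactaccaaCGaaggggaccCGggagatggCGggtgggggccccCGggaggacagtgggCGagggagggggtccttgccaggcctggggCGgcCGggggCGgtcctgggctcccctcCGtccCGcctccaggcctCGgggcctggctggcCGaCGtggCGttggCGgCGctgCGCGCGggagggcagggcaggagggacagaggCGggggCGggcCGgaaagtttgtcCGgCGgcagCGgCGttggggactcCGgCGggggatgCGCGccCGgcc

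Among the strongest rises on recovered reads were GALC, TESPA1, APBB1IP, IL33 and CMKLR1. GALC, the lysosomal galactosylceramidase, had 8.38, 8.75 and 7.73 reads per M in 2N-2 against 0.320, 0.410 and 0.271 in 2N-1, a log2 difference of 4.60 ± 0.24 (SE, limma-voom adjusted p = 2.74e-09). TESPA1, a signalling protein known from developing T cells, had 8.80, 8.89 and 7.48 reads per M in 2N-2 against 0.228, 0.169 and 0.108 in 2N-1 (5.57 ± 0.29, limma-voom adjusted p = 2.74e-09). APBB1IP, an adaptor in the activation of integrins, had 5.72, 5.71 and 6.91 reads per M in 2N-2 against 0.137, 0.313 and 0.298 in 2N-1 (4.64 ± 0.29, limma-voom adjusted p = 1.75e-08). That every library of 2N-2 lay above every library of 2N-1 was a condition of the rule that named these genes. The alarmin cytokine IL33 had 12.6, 15.4 and 11.3 reads per M in 2N-2 against 1.16, 1.90 and 0.839 in 2N-1 (3.38 ± 0.26, limma-voom adjusted p = 2e-07). No other clone averaged above 1.34 reads per M of IL33, so the high level was that of 2N-2. CMKLR1, a receptor for the chemoattractant chemerin, had 20.8, 21.5 and 17.0 reads per M in 2N-2 against 3.90, 3.54 and 3.33 in 2N-1 (2.45 ± 0.28, limma-voom adjusted p = 2.26e-05). For IL33 and CMKLR1 too, the naming rule required that the libraries not overlap.

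The remaining genes named among the strongest rises on reads were FIRRE, a long noncoding RNA of the X chromosome, at 6.28 ± 0.17 reads per M in 2N-2 and 1.20 ± 0.02 in 2N-1 (mean ± SD, n = 3 each), and CCDC3, at 8.93 ± 0.79 and 2.14 ± 0.30. On RPKM the named rises after CCL2 were EBP, PCDHB5, MFSD3 and the gene ENSG00000211535, which had no symbol in the annotation used. EBP, the sterol isomerase that works late in cholesterol synthesis, had 50.3, 50.9 and 48.1 reads per M in 2N-2 against 11.1, 11.9 and 12.3 in 2N-1, a difference of 1.79 ± 0.15 on the log2(RPKM + 0.5) scale (SE, limma adjusted p = 7.27e-06). The 4 other clones averaged 33.8 to 63.0 reads per M, so 2N-1 was the low clone. MFSD3, a membrane protein of the major facilitator superfamily, showed the same order, with 6.59, 7.27 and 6.09 reads per M in 2N-2, 2.31, 1.57 and 1.79 in 2N-1, and 6.89 to 22.2 in the means of the other clones (1.39 ± 0.17 on the RPKM scale, limma adjusted p = 7.33e-04). The EBP promoter is shown because 2N-1 was the low clone there as well, though EBP was read in all 6 clones (RefSeq, GRCh38.p14, chrX:48521558-48521857, plus strand); it holds 21 CG in capitals, and 38.8% of promoters hold as many or more.
EBP: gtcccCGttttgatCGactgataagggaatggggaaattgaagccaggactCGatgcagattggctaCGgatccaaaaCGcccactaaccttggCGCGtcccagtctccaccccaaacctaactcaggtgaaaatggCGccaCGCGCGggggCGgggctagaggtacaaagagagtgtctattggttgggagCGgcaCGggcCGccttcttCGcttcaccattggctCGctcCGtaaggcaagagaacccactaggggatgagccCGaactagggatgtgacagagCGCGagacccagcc

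Among the named falls was THBD, thrombomodulin, the thrombin receptor that starts the anticoagulant protein C pathway. It had 11.99, 12.01 and 11.1 reads per M in 2N-2 against 75.1, 67.6 and 67.4 in 2N-1. Its difference of -2.39 ± 0.10 on the log2(RPKM + 0.5) scale (SE, limma adjusted p = 2.1e-09) was the largest fall among RPKM calls, and the means of the other 4 clones, 29.2 to 67.2 reads per M, all lay above 2N-2. ENG, endoglin, a co-receptor for TGF-beta family ligands, had 0.262, 0.475 and 0.199 reads per M in 2N-2 against 5.89, 6.10 and 6.47 in 2N-1 (-4.32 ± 0.31, limma-voom adjusted p = 8.89e-08). For ENG the order was not that of 1 odd clone, because 4N-1 and 4N-3 averaged 0.141 and 0.152 reads per M, 2N-3 averaged 2.89 and 4N-2 averaged 8.40. POSTN, the matrix protein periostin, had 5.60, 4.98 and 5.03 reads per M in 2N-2 against 20.02, 22.6 and 21.8 in 2N-1 (-2.04 ± 0.14, limma-voom adjusted p = 4.79e-08). It too varied widely elsewhere, from 0.129 reads per M in 4N-2 to 55.1 in 4N-3. MACROD2, an ADP-ribosylhydrolase, had 6.75, 6.30 and 5.39 reads per M in 2N-2 against 29.9, 29.4 and 27.9 in 2N-1 (-2.24 ± 0.11, limma-voom adjusted p = 1.62e-09), and here 2N-1 was the highest of the 6 clones. The ENG promoter (RefSeq, GRCh38.p14, chr9:127854609-127854908, minus strand) is shown as the promoter of a gene that was under 0.5 reads per M in 3 clones and above 2 in the other 3; it holds 8 CG in capitals, and 59.1% of promoters hold as many or more.
ENG: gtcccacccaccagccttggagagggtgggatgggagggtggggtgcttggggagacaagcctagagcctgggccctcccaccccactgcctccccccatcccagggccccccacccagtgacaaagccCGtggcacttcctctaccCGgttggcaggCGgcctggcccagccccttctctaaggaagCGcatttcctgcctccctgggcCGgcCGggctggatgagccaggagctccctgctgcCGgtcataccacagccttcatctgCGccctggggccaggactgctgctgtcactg

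Lower by the same rule were CERS4, a ceramide synthase (1.31 ± 0.05 reads per M in 2N-2 and 7.88 ± 1.03 in 2N-1, mean ± SD, n = 3 each), and GRIK5, a kainate receptor subunit (5.47 ± 0.46 and 20.2 ± 0.42 in the same order of clones). MCOLN3, an endolysosomal cation channel, averaged 7.26 ± 0.75 reads per M in 2N-2 and 25.8 ± 0.79 in 2N-1. DRAXIN, a repulsive axon guidance cue, averaged 1.85 ± 0.31 and 7.26 ± 1.13 reads per M, and HYLS1, a centriole protein needed for cilia, 2.22 ± 0.24 and 7.58 ± 0.71, again 2N-2 first. No library of these genes overlapped between the clones, and no single left-out library removed a call. EYA1, a phosphatase and transcriptional coactivator, had 2.20, 2.06 and 1.41 reads per M in 2N-2 against 8.49, 7.69 and 6.52 in 2N-1 (-2.01 ± 0.25, limma-voom adjusted p = 6.74e-05); its limma adjusted p was 0.27 when log2 reads per M were fitted with a trend in place of voom. On RPKM, BEX4 on the X chromosome fell by 1.20 (limma adjusted p = 2.63e-04). G0S2, an inhibitor of triglyceride breakdown, had 1.39, 1.73 and 1.85 reads per M in 2N-2 against 3.29, 4.07 and 5.17 in 2N-1, and its RPKM call (limma adjusted p = 0.0313) was lost without any library other than replicate A of 2N-1, with adjusted p between 0.0624 and 0.166. The 4 other RPKM falls named by the rule, the processed pseudogenes PPIAP19, FTH1P13 and RPL19P16 and the unmatched gene ENSG00000238556, were lost in 5 or 6 of the 6 fits that left out a library, with limma adjusted p up to 0.218, and the pseudogenes can share reads with their abundant parent genes.

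**Figure D2:**
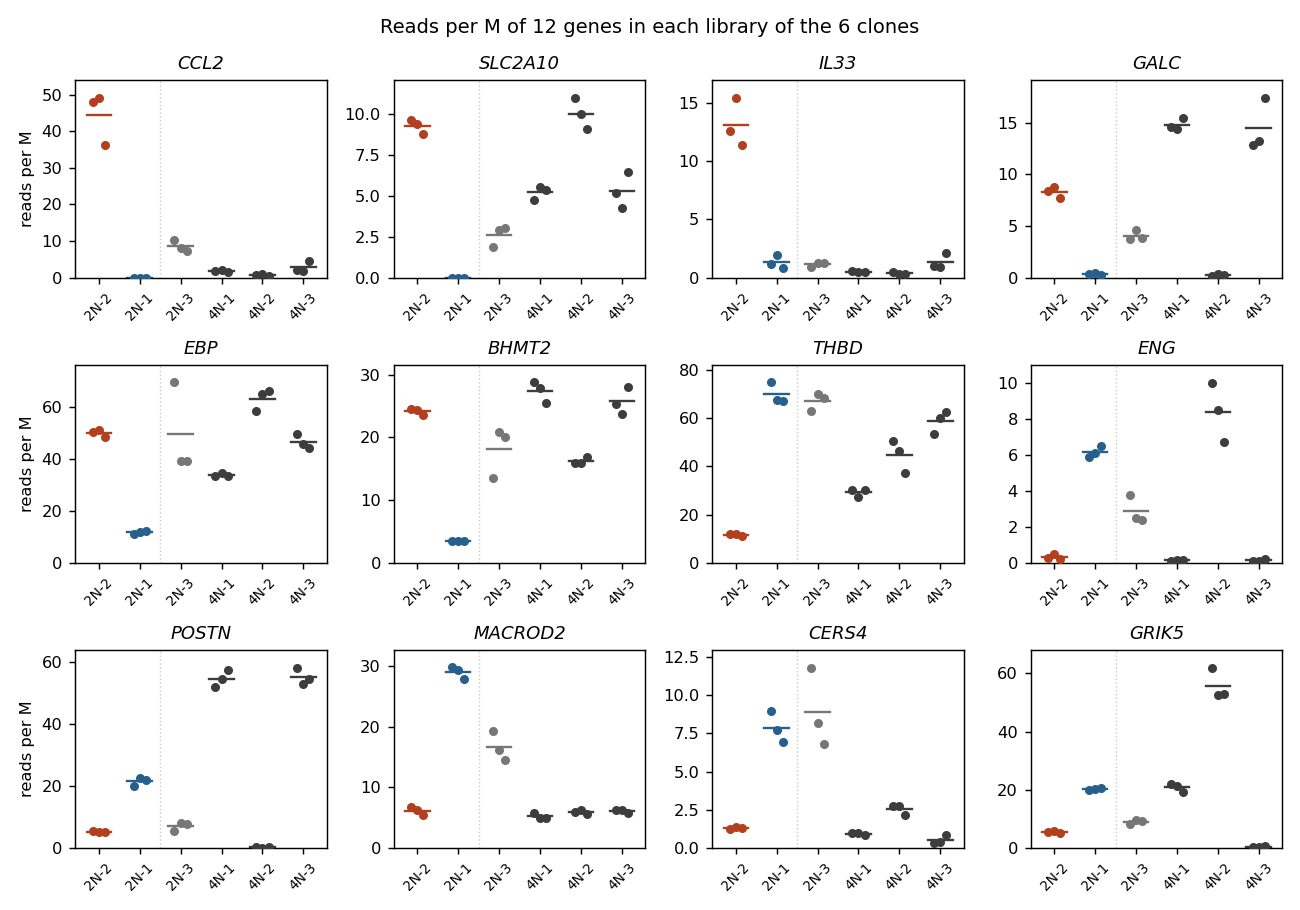
Points are libraries (reads per M, linear axis from 0) and bars are clone means for 12 named genes, with 2N-2 in red, 2N-1 in blue and the other 4 clones in grey to the right of the dotted line. CCL2 and IL33 are highest in 2N-2, THBD is lowest in 2N-2, and SLC2A10, EBP and BHMT2 are lowest in 2N-1.

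The matrix lists are read against all 23397 tested genes, of which 1.5% rose and 1.07% fell, and of which 1495 were higher and 1165 lower at an unadjusted p under 0.05. Among fibrillar matrix genes and enzymes 1 of 31 tested rose and 2 fell, at a median of 0.16 on the log2 scale against 0.0069 over all tested genes. The riser was FBLN5, a protein of elastic fibres, at 3.45 ± 0.34 reads per M in 2N-2 and 1.75 ± 0.09 in 2N-1 (limma-voom adjusted p = 9.34e-05). Next to POSTN, TGFBI fell to 259 ± 17.3 reads per M in 2N-2 against 354 ± 4.57 in 2N-1 (-0.46 ± 0.09, limma-voom adjusted p = 0.00441). Of 21 basement membrane genes 2 rose and 0 fell, with 8 higher and 0 lower at an unadjusted p under 0.05 and a median of 0.21. These were LAMA3, the laminin chain of epithelial anchorage, with 4.31, 4.80 and 4.35 reads per M in 2N-2 against 1.32, 2.00 and 1.62 in 2N-1 (1.46 ± 0.23, limma-voom adjusted p = 7.59e-04), and COL18A1 at 37.6 ± 2.63 and 24.8 ± 1.36 reads per M. The small leucine-rich proteoglycans, which bind collagen fibrils, had 2 risers and 0 fallers of 8 tested (5 and 0 at an unadjusted p under 0.05), with the median at 0.47. FMOD, fibromodulin, had 5.02, 5.15 and 4.39 reads per M in 2N-2 against 0.297, 0.193 and 0.189 in 2N-1 (4.37 ± 0.27, limma-voom adjusted p = 1.75e-08), with no overlap. LUM, lumican, averaged 43.8 ± 3.89 reads per M in 2N-2 and 25.1 ± 1.54 in 2N-1 (limma-voom adjusted p = 0.0148), a call that was lost in 4 of the 6 fits without 1 library, at adjusted p up to 0.0958, and in the fit of log2 reads per M with a trend at 0.677. Of 20 proteases and inhibitors 3 rose and 0 fell (7 higher and 2 lower unadjusted). Of the 3, SERPINE2 was lost in 6 and PLAT in 3 of the 6 fits without a library. The call that held was TIMP4, an inhibitor of matrix metalloproteinases, at 2.52 ± 0.16 and 0.761 ± 0.15 reads per M (1.72 ± 0.19, limma-voom adjusted p = 1.52e-05).

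Secreted inflammatory genes gave 4 risers and 0 fallers among 16 tested cytokines and chemokines (7 and 0 unadjusted), with the median at 0.30, where 1.5% of all tested genes rose and 1495 of 23397 were higher unadjusted. Beside CCL2 and IL33 these were IL11, at 6.95 ± 0.46 reads per M in 2N-2 and 4.56 ± 0.40 in 2N-1, and IL1B, at 46.1 ± 0.72 and 32.8 ± 2.89, both at a limma-voom adjusted p of 0.0148. Without replicate B of 2N-1 the adjusted p was 0.115 for IL11 and 0.105 for IL1B, and 2 and 4 of the 6 fits without a library lost the call. Other members did not pass, CXCL8 standing at 0.387 reads per M in 2N-2 and 0.393 in 2N-1 and VEGFA at 588 and 546. Of 13 NF-kB targets 1 rose, TRAF1, an adaptor of tumour necrosis factor receptors, at 2.08 ± 0.28 reads per M in 2N-2 and 1.10 ± 0.18 in 2N-1 (limma-voom adjusted p = 0.00184).

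In sterol and oxidative metabolism the passing genes were single members or paralogs, where 1.5% of all tested genes rose and 1.07% fell. EBP was the only 1 of 24 cholesterol genes past the limma-voom test, and the median of the list was 0.020. Of 19 NRF2 targets 3 rose, AKR1C1, AKR1C2 and AKR1C3, aldo-keto reductases that reduce steroids and carbonyls, while NQO1 stood at 325 reads per M in 2N-2 and 389 in 2N-1 (limma-voom adjusted p = 0.40) and the median was -0.037. AKR1C3 had 27.3, 29.2 and 26.2 reads per M in 2N-2 against 11.8, 10.8 and 10.8 in 2N-1 (1.31 ± 0.16, limma-voom adjusted p = 7.62e-05). The AKR1C genes are near-identical neighbours on chromosome 10, and the split of reads among them is uncertain. AKR1C1 was lost without replicate A of 2N-1 (limma-voom adjusted p = 0.0778) and without replicate B (0.0636).

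No member of the cell-cycle lists passed the test. In limma-voom 0 of 32 mitosis genes and 0 of 32 DNA replication genes passed, with 0 and 0 at an unadjusted p under 0.05, at medians of -0.17 and -0.25; limma on RPKM gave 0 of 30 and 0 of 24, again with 0 unadjusted. MKI67, the proliferation marker, had 432, 391 and 502 reads per M in 2N-2 and 436, 503 and 603 in 2N-1, overlapping between the clones. Among G1 cyclins, CDKs and their inhibitors 0 of 18 passed in limma-voom and 0 of 11 on RPKM (2 and 1 lower unadjusted). CDKN1A, the p53-induced CDK inhibitor, had 153, 162 and 142 reads per M in 2N-2 and 143, 136 and 138 in 2N-1 (limma-voom adjusted p = 0.71). CCND2, a D-type cyclin, was at the limit of detection in both clones, 0.0128 ± 0.011 reads per M in 2N-2 and 0.0654 ± 0.027 in 2N-1 (limma-voom adjusted p = 0.22, and 0.00216 in the fit of log2 reads per M with a trend). Of 30 p53 targets 1 rose and 1 fell, where 1.5% of all tested genes rose and 1.07% fell. DDB2, a DNA damage sensor, averaged 12.02 ± 0.45 reads per M in 2N-2 and 7.25 ± 0.30 in 2N-1 (limma-voom adjusted p = 1.73e-04), and SPATA18, a mitochondrial quality control gene, 1.54 ± 0.31 and 4.26 ± 0.60 (6.11e-05 by the same test). No member passed limma-voom in 16 of the 38 lists examined, and 5 of these 16 also had none at an unadjusted p under 0.05; on RPKM limma gave 30 such lists and 8.

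**Figure D3:**
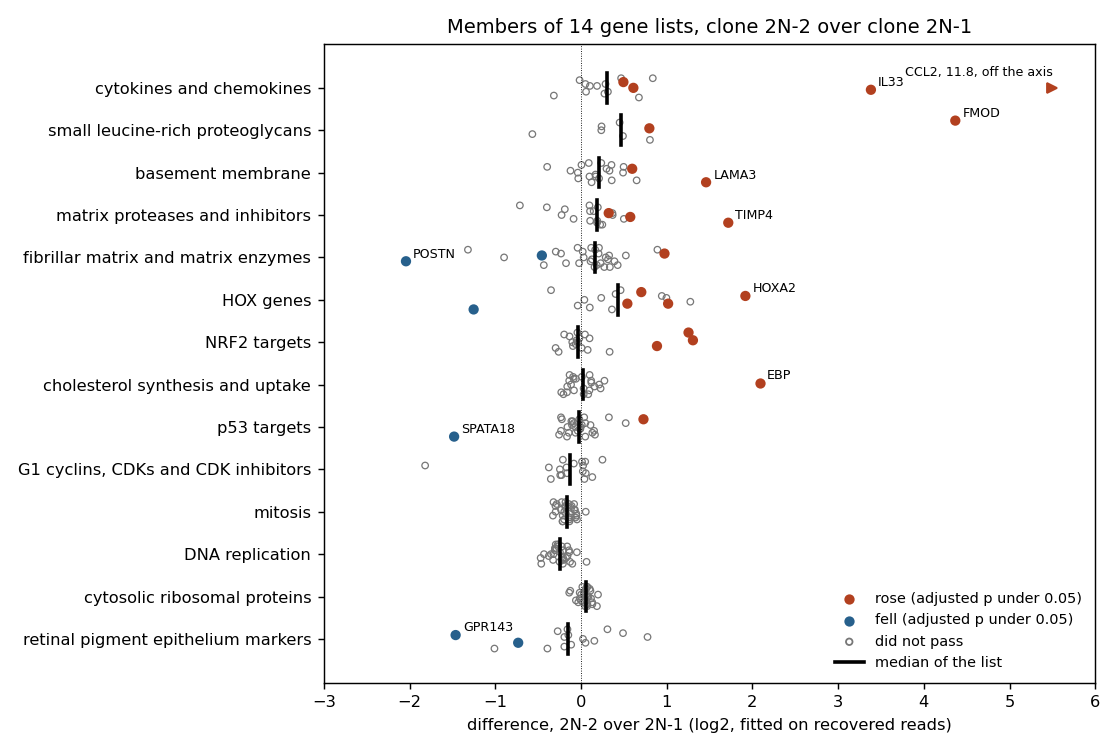
Points are tested members of 14 gene lists, placed by their fitted log2 difference (2N-2 over 2N-1, recovered reads); filled points passed an adjusted p of 0.05, open points did not, and black bars are list medians. Passing members number 5 of 16 in the HOX list and 0 in mitosis, DNA replication and ribosomal proteins; CCL2 at 11.81 lies off the axis.

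Genes of body position, imprinting and pigment were read against the same shares, 1.5% of all tested genes rising and 1.07% falling. Of 16 tested HOX genes, which set position along the body axis, 4 rose and 1 fell (10 and 1 unadjusted, against 1495 and 1165 of 23397), at a median of 0.43. HOXC6, a riser, and HOXA11, the faller, were each lost in 5 of the 6 fits without a library, and HOXB4 in 1. HOXA2 had 0.947, 0.730 and 0.971 reads per M in 2N-2 against 0.205, 0.217 and 0.244 in 2N-1 (1.92 ± 0.23, limma-voom adjusted p = 4.25e-05). HOXA3 averaged 10.3 ± 0.38 and 5.08 ± 0.57 reads per M (1.02 ± 0.14, limma-voom adjusted p = 1.56e-04), and slipped just under 2-fold in 3 of the 6 fits without a library; fitted as log2 reads per M with a trend its adjusted p was 0.284. The tetraploid clones averaged at most 0.110 reads per M of HOXA3. Of 16 imprinted genes, expressed from 1 parental copy, MEST rose (277 ± 9.05 reads per M in 2N-2 and 203 ± 5.53 in 2N-1, limma-voom adjusted p = 0.00105) and L3MBTL1 fell (0.246 ± 0.03 and 0.626 ± 0.09, 7.55e-04). Among pigment epithelium markers 2 of 16 fell and 0 rose. GPR143, a melanosome receptor, had 10.03, 11.96 and 11.04 reads per M in 2N-2 against 30.9, 31.2 and 28.9 in 2N-1 (-1.46 ± 0.17, limma-voom adjusted p = 3.15e-05, but 0.473 with log2 reads per M and a trend). The other faller, SLC45A2 (limma-voom adjusted p = 0.0335), was lost in 4 of the 6 fits without a library, at adjusted p up to 0.21.

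Among clustered protocadherins, adhesion proteins of which cells express chosen members, the passing falls lay among PCDHA genes and the passing rises among PCDHB genes. Of 50 tested, 2 rose and 15 fell, against 1.5% and 1.07% of all tested genes. The median of the list was 0.14, against 0.0069 over all tested genes, and 0 members were called lower at 2-fold or more. PCDHB5 had 6.28, 6.81 and 6.27 reads per M in 2N-2 against 1.21, 1.28 and 1.35 in 2N-1 (1.53 ± 0.11 on the RPKM scale, limma adjusted p = 2.89e-06), and all 4 other clones averaged 5.16 reads per M or more. The other riser, PCDHB13, averaged 7.54 ± 0.31 reads per M in 2N-2 and 3.99 ± 0.30 in 2N-1 (limma-voom adjusted p = 0.0301) and was lost without any 1 of the 6 libraries, at adjusted p of 0.0685 to 0.136. The 15 that fell were the PCDHA genes, whose spans overlap and share exons, so that they stand for 1 locus counted many times; PCDHAC2, the last of them, averaged 6.73 ± 0.34 reads per M in 2N-2 and 11.8 ± 0.44 in 2N-1 (-0.81 ± 0.11, limma-voom adjusted p = 1.18e-04).

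Several calls were neighbours. Of 22141 adjacent pairs of tested genes 37 were called in both members, 35 of them in the same direction, but only 12 of those 35 were pairs whose spans do not overlap. Merged by overlapping span, the 308 called genes with a position made 283 loci, the largest holding 9 genes. That locus was UGT1A on chromosome 2, whose genes share their last exons and cannot be told apart in these counts; UGT1A8 had 0.463, 0.602 and 0.464 reads per M in 2N-2 against 0.023, 0.072 and 0.081 in 2N-1. Whether the counting used the strand is not stated, so overlapping genes on opposite strands are also uncertain.

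On chromosome 5, BHMT2 and BHMT are neighbours, and both overlap the span of DMGDH. The 3 genes act in homocysteine methylation and the breakdown of dimethylglycine. BHMT2 had 24.5, 24.4 and 23.5 reads per M in 2N-2 against 3.45, 3.40 and 3.49 in 2N-1 (2.80 ± 0.15, limma-voom adjusted p = 2.74e-09). BHMT, whose span does not overlap that of BHMT2, had 1.91, 1.72 and 1.97 reads per M in 2N-2 against 0.342, 0.265 and 0.244 in 2N-1. DMGDH, on the opposite strand and overlapping both, had 7.45, 7.34 and 7.28 reads per M against 0.982, 1.47 and 1.43. Strand use in counting is not stated, so the 3 genes may share reads. All 3 were lowest in 2N-1 among the 6 clones. BHMT was named, like the other neighbours here, after the values were seen.

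On chromosome 6, CYP39A1, an oxysterol hydroxylase, and SLC25A27, a mitochondrial carrier, start 157 bases apart on opposite strands, and both fell. SLC25A27 had 1.39, 1.41 and 1.32 reads per M in 2N-2 against 6.46, 6.24 and 5.09 in 2N-1 (-2.10 ± 0.25, limma-voom adjusted p = 5.18e-05), while CYP39A1 had 0, 0 and 0 against 0.411, 0.217 and 0.271. For both genes every library of 2N-2 lay below every library of 2N-1, which the naming rule required of SLC25A27. Clone 2N-2 was the lowest of the 6 clones for both. Their promoter windows share 256 of 300 bases, and that of SLC25A27 is shown (RefSeq, GRCh38.p14, chr6:46652725-46653024, plus strand). This window holds the stretch between the starts and bases on either side of it. It has 19 CG in capitals, and 42.1% of promoters hold as many or more.
SLC25A27: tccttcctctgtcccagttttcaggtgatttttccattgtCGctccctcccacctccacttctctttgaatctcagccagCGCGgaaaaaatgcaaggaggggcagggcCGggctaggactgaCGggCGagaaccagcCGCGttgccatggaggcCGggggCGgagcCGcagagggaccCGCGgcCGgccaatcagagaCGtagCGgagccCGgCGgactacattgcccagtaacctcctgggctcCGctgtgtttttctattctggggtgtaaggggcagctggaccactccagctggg

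Over whole sets, the median promoter held 14 CG among the 126 matched genes called higher in 2N-2 and 21 among the 87 called lower, against 25 among 12978 tested genes and 13 among all 27305. Promoters with 5 CG or fewer were 28.6% of the first set, 17.2% of the second and 13.3% of tested genes. The shares given with the printed sequences are over all 27305 promoters. Against the median of 25 among tested genes, SLC2A10 (31) lay above and EBP (21), SLC25A27 (19) and ENG (8) below. These are descriptions of sequence, without a test, and called genes that share a locus, such as those of UGT1A, were not merged.

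Offsets of whole chromosomes between the clones were small. Among genes averaging at least 300 reads, chromosome medians of the log2 difference ran from -0.045 on chromosome 13 to 0.063 on chromosome 22. On chromosome 22 the libraries of 2N-2 stood at 0.041, 0.10 and 0.051 and those of 2N-1 at -0.015, -0.015 and 0.034, all relative to the 2N-1 mean. Replicate B of 2N-2 was the farthest from 0 of the 3 libraries of 2N-2 on both chromosomes. For scale, clone 4N-2 stood at -0.29 on chromosome 1. Of 285 windows of 40 genes the largest offset was 0.16, at the start of chromosome 11 (LINC01001 to CD81), where replicates A, B and C of 2N-2 stood at 0.11, 0.26 and 0.096, so that replicate B was again the highest. Called genes made up 0.442% (chromosome 21) to 2.31% (chromosome X) of the tested genes of a chromosome.

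**Figure D4:**
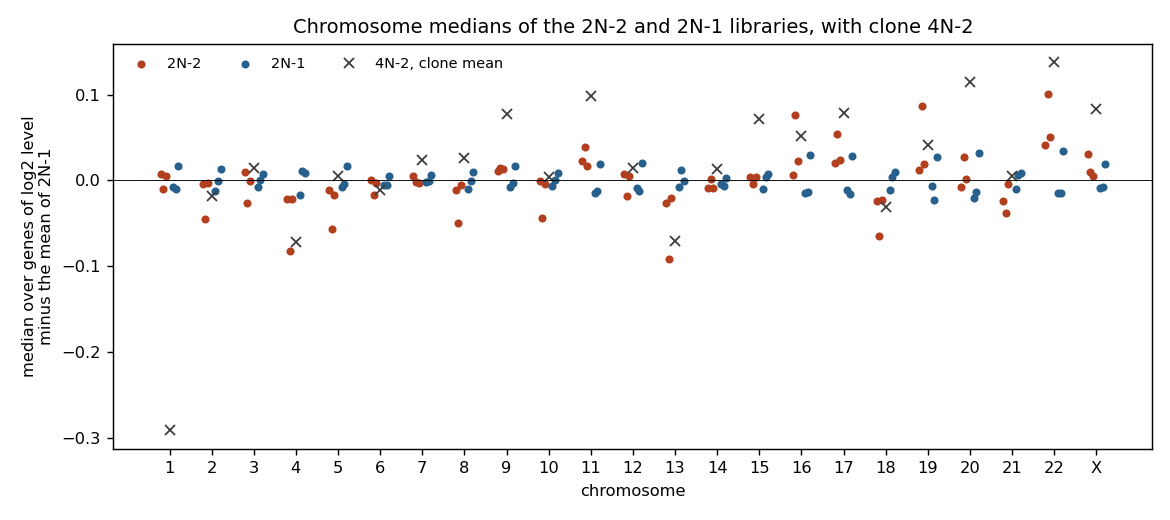
Each point is a library of 2N-2 (red, left) or 2N-1 (blue, right), placed at the median over the genes of a chromosome of its log2 level minus the mean of 2N-1; crosses are the mean of clone 4N-2. The libraries of both diploid clones lie within 0.11 of 0 on every chromosome, while 4N-2 lies at -0.29 on chromosome 1.

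The called genes were set beside the other 4 clones. They were chosen for a difference of 2-fold or more within the pair, so that lying outside is partly built in. The same was not counted over all tested genes. Of the 320, counting a clone as outside only where its mean lay beyond those of the other 4 clones on the side away from its partner (above them for the higher of the pair, below them for the lower), 2N-2 alone was outside in 115, 2N-1 alone in 84, both in 40 and neither in 81. On that side the distance to the nearest of the other 4 was 2-fold or more for 2N-2 in 57 genes and for 2N-1 in 36 (0.05 reads per M added to each mean). Genes in which both clones lay on the same side of the other 4 were not counted as outside for the inner clone, as in EYA1, with 1.89 reads per M in 2N-2 and 7.57 in 2N-1 against at most 0.134 elsewhere. The third diploid clone, 2N-3, lay between the pair in 209 of the 320 genes, beyond 2N-2 in 32 and beyond 2N-1 in 79. Comparisons with 2N-3 share libraries with the comparison reported here and are given side by side only: 214 genes were called for 2N-3 over 2N-1 (0.915%) and 388 for 2N-3 over 2N-2 (1.66%). Replicate A of 2N-3 stood apart from its clone; without it and replicate C of 4N-3, the count for 2N-2 over 2N-1 was 431.

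Between tetraploid clones from the same isolates, 4N-2 over 4N-1, the same test called 4311 genes (18.4%) and shared no library with the diploid comparison. Of the 320 diploid calls 85 were called there in the same direction (26.6% of the diploid and 1.97% of the tetraploid calls), 105 in the opposite direction (32.8% and 2.44%) and 130 not at all. The difference between the differences, tested as an interaction of isolate and ploidy, was called in 4355 genes (18.6%), among them 243 of the 320. That contrast contains the difference by which the 320 were chosen, so their larger share is partly built in and is no independent result. MCOLN3 and DRAXIN were among those lower in both isolate 2 clones, at -1.83 and -1.97 in the diploid and -2.32 and -2.29 in the tetraploid pair. GALC and ENG ran oppositely, at 4.60 and -4.32 in the diploid pair against -5.72 and 5.78 in the tetraploid pair. Of all 15 pairs of clones, the diploid pairs had the fewest calls on reads. The means of 2N-2 and 2N-1 were the closest, at a root-mean-square log2 difference of 0.205 against 0.216 to 0.572 for the other pairs. By that measure the tetraploid clone 4N-3 was nearer to 2N-2 (0.216) and 2N-1 (0.22) than the diploid 2N-3 was (0.25 and 0.264). Libraries within 2N-3 differed by 0.477, and the pairs with 2N-3 were not recounted without its replicate A.

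**Figure D5:**
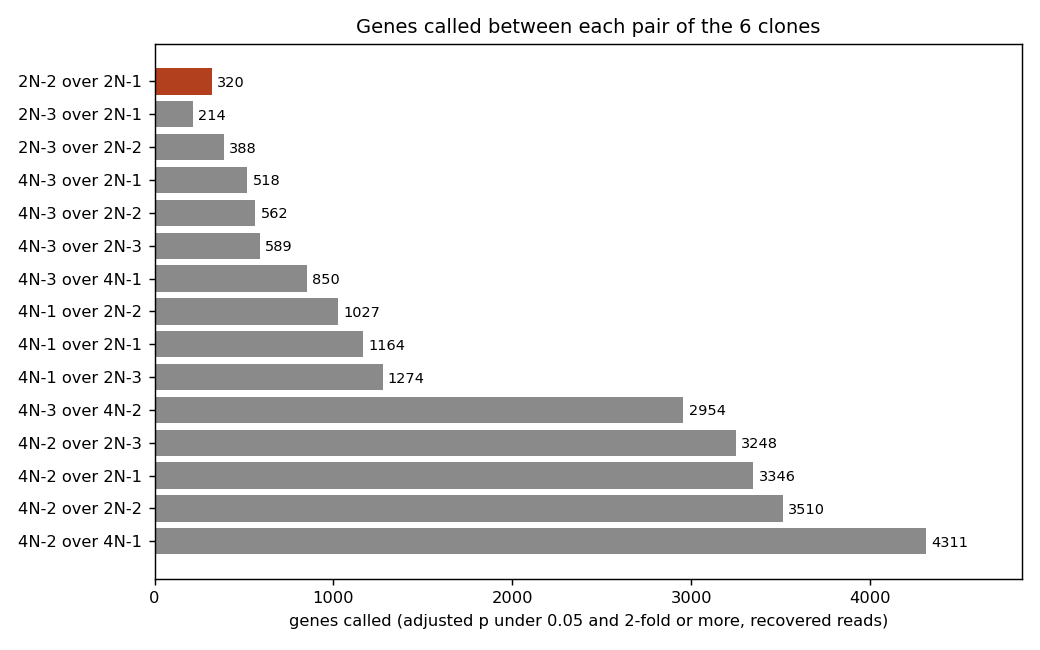
Bars give the number of genes called on recovered reads between each pair of the 6 clones, with 2N-2 over 2N-1 in red at the top and the others in rising order. The 3 diploid pairs have 320, 214 and 388 called genes, and pairs that include a tetraploid clone have 518 to 4311.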

How the data were processed

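Polyadenylated RNA of 18 libraries was sequenced from a stranded TruSeq kit, per the labels' protocols. CASAVA 1.8.2, TopHat2, edgeR and the build hg19 are named in the submitters' processing notes; the annotation and strand use in counting are not given in the sources used here. Values deposited by the authors are RPKM, reads per kilobase of gene and M reads, 1 per gene in each library. For 13614 of 15831 genes with over 50 reads, the implied length lay within 0.5% of the genomic span, introns included. Each gene's values are whole multiples of a step: all 561688 values above 0 gave whole reads within 0.01 reads. Reads per M divide these by each library's implied divisor, 36.9 to 54.8 M for the 6 libraries compared. Symbols and positions came from GENCODE 29 (GRCh38).

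A mean per clone was fitted over all 18 libraries with limma 3.58.1 in R 4.3.3, with a trend on log2(RPKM + 0.5) (1 RPKM in 3 libraries) and with voom on recovered reads (10 reads in 3 libraries), two-sided, Benjamini-Hochberg adjusted. RPKM are not counts, so the fit on recovered reads is an alternative to the RPKM fit, used for genes of long span. Both were also run on simulated counts in which only 2N-2 differed from the other clones. Differences among the other clones, and libraries that stand apart, were not simulated. Tables and figures used Python 3.11.15. Genes were named by rule: up to 12 largest called changes per direction on RPKM (2 RPKM or more), 10 on reads (5 reads per M or more), genes on in 1 clone and off in the other, and up to 5 passing members per list; neighbours, partners and list members that did not pass the test (such as NQO1, VEGFA, MKI67 and OTX2) were chosen after their values were seen. The largest changes on RPKM and on reads were taken only from genes whose libraries did not overlap between 2N-2 and 2N-1. The comparison, lists and rule were chosen with earlier results of these data known.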

Additional observations from a re-analysis of the deposited data

Results flagged for a closer look

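Results are given here where the difference between isolate 2 and isolate 1 was not the same in diploid and tetraploid clones, by the interaction term of limma-voom (adjusted p under 0.05 and 2-fold or more). All 4355 such genes, and the 243 that were also called for 2N-2 over 2N-1, rest on 2 diploid and 2 tetraploid clones. The term contains the difference by which the 243 were called, so their number is partly built in. Each value below is the log2 difference of 2N-2 over 2N-1 minus that of 4N-2 over 4N-1, and values of genes with no reads in a clone depend on the small count that voom adds.

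Among genes higher in 2N-2 the term was positive for CCL2 (13.13), LUM (12.36), GALC (10.32), SLC2A10 (8.62), CCDC3 (3.99), IL33 (3.94) and BHMT2 (3.56). It was also positive for IGFBP5 (3.02), FBLN5 (3.01), HOXC6 (2.75), MEST (2.59), CMKLR1 (2.52), FIRRE (2.40), DMGDH (2.39), PCDHB5 (2.20) and FMOD (2.04). Smaller positive terms were found for HOXA2 (1.797), ENSG00000211535 (1.68), LRP5 (1.49), ITGB3 (1.49), TESPA1 (1.46), HOXA3 (1.34), AKR1C3 (1.32), EBP (1.19), PCDHB13 (1.13), EPSTI1 (1.08) and IL1B (1.03). Genes higher in 2N-2 with a negative term, that is with a larger rise in the tetraploid pair, were APBB1IP (-4.47), TIMP4 (-3.80), AKR1C1 (-1.33) and TRAF1 (-1.29).

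Among genes lower in 2N-2 the term was most negative for GPR143 (-11.50), ENSG00000243486 (-10.51), ENG (-10.11), L3MBTL1 (-6.66), SSX1 (-6.29) and G0S2 (-6.28). Further negative terms were those of CERS4 (-4.00), TGFA (-3.45), SLC25A27 (-3.41), GRIK5 (-3.31), THBD (-3.18), MACROD2 (-2.42), SPATA18 (-2.02), HYLS1 (-1.77), CLDN1 (-1.72) and PPIAP19 (-1.20). POSTN (6.72), HOXA11 (2.04) and SLC45A2 (1.27) had positive terms, their fall being larger in the tetraploid pair. The Hoechst label and the isolate cannot be told apart in any of these. Some of the genes passed only weakly for 2N-2 over 2N-1. ITGB3 was lost in 6 of the 6 fits without a library, IGFBP5 and CLDN1 in 5 each, EPSTI1 in 3 and LRP5 in 2. HOXA2 had 0 reads in every tetraploid clone, so its term rests in part on the small count that voom adds.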

How the results depend on the processing

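Of the counts, that on RPKM moved most. It was 17 as reported, 29 with a pseudocount of 0.1, 11 with a pseudocount of 1, 2 when limma treat tested against a 2-fold change, and 11 with a replicate block, with leave-one-library-out fits giving 11 to 12. The other RPKM settings (no filter, a filter or fit on the 6 libraries, median centring, quantile normalization, the paired fit on the 6 libraries, and leaving out the 2 libraries that stand apart) gave 16 to 20. The count of 320 on reads stayed between 262 and 431 over all 13 alternatives, 308 with the replicate block, with 183 higher and 137 lower as reported against 176 and 144 under total reads as library sizes; the fit without the 2 libraries that stand apart was added after seeing the data. Genes on in 1 clone and off in the other numbered 5 in place of 3 at 0.5 reads per M. Libraries with the same letter did not deviate together (correlations of 0.049, -0.044 and 0.13 for A, B and C), so the letters were not taken to pair them. Of 78 named genes, 27 lost their call when some library was left out, and 0 reversed. Depth limits genes under about 10 reads a library, and near-identical or overlapping genes cannot be resolved.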

Other observations

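Beyond the genes described, 2 ligand or receptor partners of named genes moved, and both were looked up after the values were seen. RARRES2, the gene of chemerin, had 0.383, 0.548 and 0.287 reads per M in 2N-2 against 3.20, 2.87 and 2.52 in 2N-1 (-2.81 ± 0.36), opposite in sign to its receptor CMKLR1. ACVRL1, a receptor kinase that works with endoglin, had 0.302, 0.164 and 0.177 reads per M in 2N-2 and 0, 0 and 0 in 2N-1, opposite in sign to ENG, at a level so low that the fold is not given. In the other clones RARRES2 averaged 0.023 to 0.894 reads per M.

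The genes that follow were also chosen after their values were seen. On chromosome 17, ABCA9 and ABCA6, neighbouring lipid transporter genes, had 16.9, 18.0 and 12.6 and 48.5, 48.4 and 36.7 reads per M in 2N-2 against 5.09, 4.72 and 4.20 and 20.8, 19.4 and 15.3 in 2N-1, and 2N-2 was the highest of the 6 clones for both. On chromosome 19 the neighbouring zinc finger genes ZNF528 and ZNF578 were called in opposite directions, with ZNF528 at 1.47, 1.88 and 1.46 reads per M in 2N-2 against 5.25, 4.84 and 4.74 in 2N-1, and ZNF578 at 2.01, 1.68 and 1.97 against 0.411, 0.651 and 0.244. Among abundant called genes COL7A1, the collagen of anchoring fibrils, had 180, 195 and 170 reads per M in 2N-2 against 88.1, 92.6 and 84.0 in 2N-1, with the other clones at 166 to 221.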
